A study of Mus musculus with 10 samples.

Results

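The 9 genes described here encode proteins that neutrophils, the most abundant phagocytes of the blood, make while they mature in the bone marrow: Ngp, Camp, S100a8, S100a9, Ltf, Lcn2, Mpo, Elane and Retnlg. They were chosen by name as a list and found by mouse Ensembl identifier. All 9 were present among the 22024 genes of the count table, and all 9 passed the filter on low counts that left 15191 genes for testing. The RNA sequenced was polyadenylated RNA of lumbar cord from 10 mice, all female and 3 months old. TDP-43, the product of TARDBP, binds RNA, and M337V is a mutation of it found in amyotrophic lateral sclerosis. The M337V group (n = 5, animals 1, 2, 3, 7 and 9) carried a bacterial artificial chromosome (BAC) with human genomic TARDBP bearing M337V, placed at the Rosa26 locus. The WT group (n = 2, animals 8 and 10) had this construct at that locus in its unmutated form. The NTg group (n = 3, animals 4, 5 and 6) was nontransgenic. The transgenic lines were made in embryonic stem cells and backcrossed to C57BL/6J, the mice used as controls were littermates of like age, and the number of transgene copies in each animal is not given in the sources used here. The human gene came as a genomic clone and not behind a cell-type promoter, and the text on the lines describes no change to the mouse Tardbp gene in any group.

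The libraries NTg 4 and WT 8 stand apart from the others of their label, and every comparison with NTg or WT rests in part on them. The library labelled NTg 4 held 2415 counts of human TARDBP (118 counts per 1000000, CPM), against 1 count in NTg 5 and 4 in NTg 6, and the 7 transgenic libraries held 114 to 141 CPM. Its human TARDBP level thus went against its label, and results are given with and without it. The library WT 8 had the lowest level of all 10 libraries for each of the 9 genes, and its summed level of them was 27.9 CPM where the other WT library had 96.1 CPM. Library totals ran from 18724888 to 21041474 counts. Library names were consecutive within part of the design: M337V 1, 2 and 3 had library numbers 10 to 12, NTg 4, 5 and 6 had numbers 2 to 4, and both WT libraries and M337V 7 and 9 had numbers 5 to 8. The labels do not say whether these numbers mark a preparation batch. Snap25, a neuronal gene named after its values were seen, stood at 2593 to 3420 CPM and Mbp, a myelin gene, at 10047 to 16556 CPM, so genes of the labelled tissue were high in each library.

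Neutrophils store antimicrobial proteins in granules that are filled in sequence. Azurophil granules form first, in promyelocytes, and hold myeloperoxidase (Mpo) and neutrophil elastase (Elane). Specific granules form later, in myelocytes and metamyelocytes, and hold lactoferrin (Ltf), lipocalin-2 (Lcn2), the cathelicidin precursor (Camp) and neutrophilic granule protein (Ngp). S100a8 and S100a9 encode the calcium-binding pair called calprotectin, which lies mainly in the cytosol and not in a granule, and Retnlg encodes resistin-like gamma, a secreted protein of myeloid cells. The messages of azurophil and most specific granule proteins are made mainly in marrow precursors and decline as the cells mature, while S100a8 and S100a9 messages persist in circulating neutrophils. Healthy spinal cord holds few neutrophils, and Lcn2 can also be made by reactive astrocytes.

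Of the 9 promoters, 4 are shown. They are those of 2 specific granule proteins, a subunit of calprotectin and an azurophil enzyme. The specific granule genes shown are Ngp, with 2 C/EBP-type matches, and Ltf, with matches to 3 motifs. RefSeq windows from 250 bases before to 50 bases after each gene's start were found for 9 of 9 genes (build GRCm38.p6). The starts are those of RefSeq and can differ from the GENCODE coordinates given below. The GENCODE gene Mpo starts at 87793581, so most of its window lies within the gene as GENCODE draws it. The 4 windows lie at chr9:110419558-110419857 (Ngp), chr9:111019042-111019341 (Ltf), chr3:90668821-90669120 (S100a8) and chr11:87793534-87793833 (Mpo), all on the plus strand. Capitals mark matches on either strand to short motifs of C/EBP, PU.1 and RUNX factors and of the TATA box, which are spelled out after the sequences.
Ngp: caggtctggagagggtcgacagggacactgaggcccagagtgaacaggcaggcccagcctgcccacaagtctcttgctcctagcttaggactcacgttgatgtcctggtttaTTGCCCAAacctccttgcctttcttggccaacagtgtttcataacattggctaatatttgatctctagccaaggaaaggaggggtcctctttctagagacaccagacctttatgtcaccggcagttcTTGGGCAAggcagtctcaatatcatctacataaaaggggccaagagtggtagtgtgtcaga
Ltf: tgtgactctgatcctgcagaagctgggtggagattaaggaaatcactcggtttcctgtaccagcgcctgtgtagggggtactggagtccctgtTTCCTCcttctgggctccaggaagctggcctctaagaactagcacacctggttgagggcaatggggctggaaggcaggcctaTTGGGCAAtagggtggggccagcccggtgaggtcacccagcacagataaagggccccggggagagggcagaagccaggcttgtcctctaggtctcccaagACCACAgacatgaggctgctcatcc
S100a8: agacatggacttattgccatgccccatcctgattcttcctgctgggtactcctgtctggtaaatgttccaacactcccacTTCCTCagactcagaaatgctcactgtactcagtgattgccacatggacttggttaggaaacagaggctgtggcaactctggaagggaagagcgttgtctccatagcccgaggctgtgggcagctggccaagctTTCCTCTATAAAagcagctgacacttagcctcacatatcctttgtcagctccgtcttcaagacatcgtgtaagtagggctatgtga
Mpo: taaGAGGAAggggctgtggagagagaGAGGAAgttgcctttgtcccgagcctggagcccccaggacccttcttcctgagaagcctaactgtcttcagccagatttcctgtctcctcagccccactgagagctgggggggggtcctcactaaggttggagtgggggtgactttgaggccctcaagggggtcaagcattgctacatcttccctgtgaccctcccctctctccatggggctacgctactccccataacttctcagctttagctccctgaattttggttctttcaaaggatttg
In the S100a8 window the second PU.1 match and the TATA match lie end to end, so they print as 1 run of capitals. The C/EBP letters TTGCNNAA were found in 5 of 9 promoters (Ngp, S100a9, Ltf, Lcn2 and Retnlg), and in 10.8% of all 32851 RefSeq windows of the same length. The PU.1 letters GAGGAA were found in 5 of 9 (S100a8, Ltf, Lcn2, Mpo and Elane) and in 28.3% of all windows. The RUNX letters TGTGGT were in 2 of 9 (S100a9 and Ltf) against 16.8% of all windows. The TATA letters TATAAA were in 2 of 9 (S100a8 and S100a9) against 13.6%. The Camp window held none of the 4. A match describes the letters and is not evidence of a bound site.

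Levels differed widely between animals, and the order of the animals was much the same for each gene. Summed over the 9 genes, the NTg libraries held 514 CPM (NTg 4), 153 CPM (NTg 5) and 242 CPM (NTg 6). The WT libraries held 27.9 CPM (WT 8) and 96.1 CPM (WT 10). The M337V libraries held 62.5, 86.8, 51.6, 89.0 and 134 CPM in animals 1, 2, 3, 7 and 9. Every library labelled NTg therefore lay above every library labelled transgenic in the summed level. This order is by label, since NTg 4, the highest, held human TARDBP at the level of the transgenic libraries. NTg 5 was the lowest of the NTg libraries, so the order stood without NTg 4. The 9 genes made up 0.00274% to 0.0526% of a library's counts. In whole counts that was 533 in WT 8 and 10488 in NTg 4. Elane, the least counted of the 9, had 5 counts in WT 8, so its value there is imprecise. The highest library exceeded the lowest by 16.1-fold for Ngp and Mpo and by up to 23.8-fold for Camp. Each of the 9 genes was highest in NTg 4 and lowest in WT 8, and 2.94% of all tested genes had that pair of extremes. In bulk tissue, fewer cells of a type and less RNA per cell cannot be told apart.

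**Figure D1:**
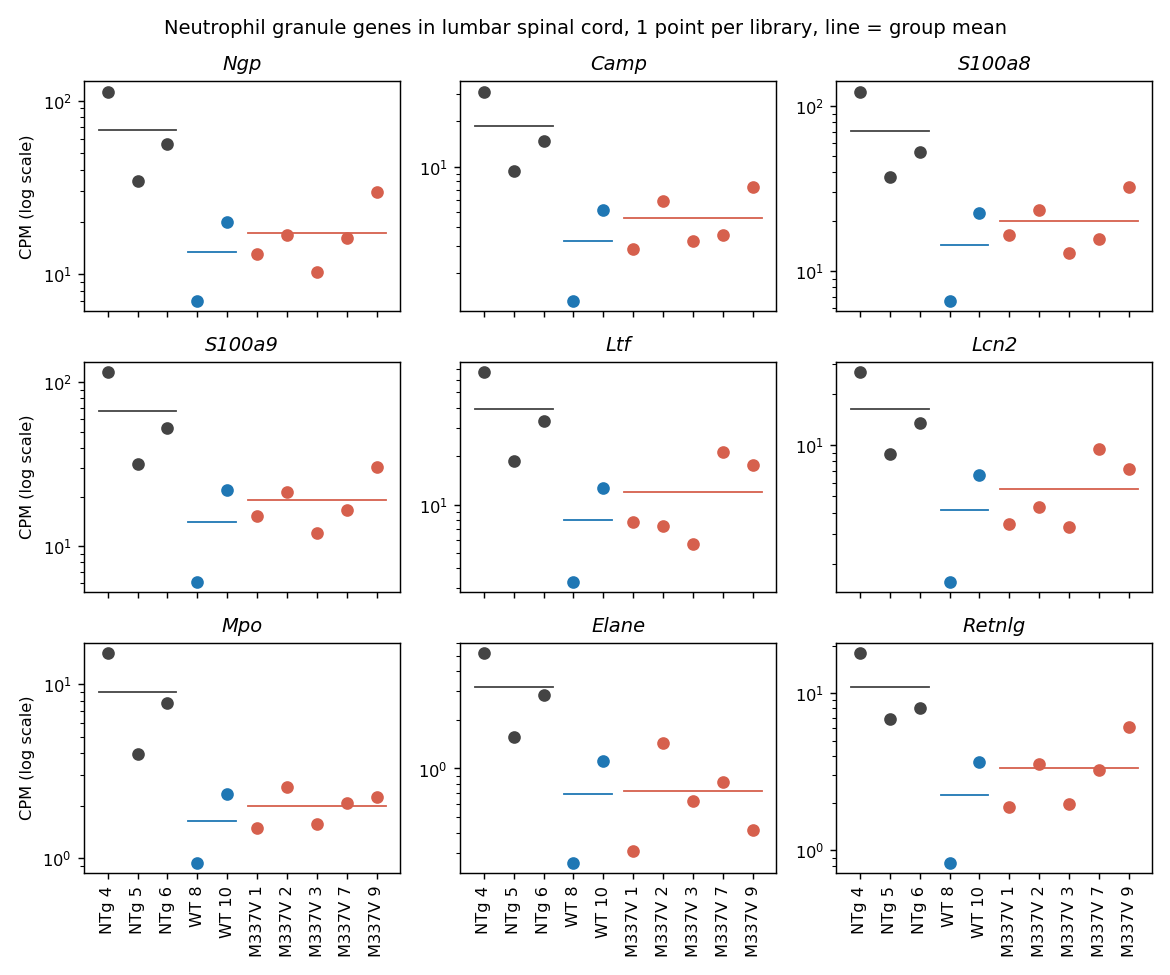
CPM of each of the 9 genes (vertical axis, log scale) in the 10 libraries (horizontal axis), with 1 point per library, grouped and coloured by genotype, and a line at each group's mean. For every gene NTg 4 is the highest point and WT 8 the lowest, and for Ltf and Lcn2 the point of M337V 7 lies above that of NTg 5.

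Among the specific granule genes, Ngp reached 113, 34.5 and 56.3 CPM in NTg 4, 5 and 6. It reached 7.01 and 19.97 CPM in WT 8 and 10, and 13.1, 16.9, 10.3, 16.2 and 29.7 CPM in M337V 1, 2, 3, 7 and 9. The lowest NTg value was above the highest transgenic value, M337V 9, by a small margin. Camp, whose product is cut to the mouse cathelicidin peptide, had NTg levels of 31.1, 9.41 and 14.8 CPM, WT levels of 1.31 and 5.16 CPM and M337V levels of 2.87, 5.90, 3.24, 3.57 and 7.38 CPM, in the same animal order. Its groups were separated in the same way. Ltf, which encodes an iron-binding protein, had NTg levels of 66.8, 18.6 and 33.4 CPM, WT levels of 3.296 and 12.8 CPM and M337V levels of 7.73, 7.297, 5.696, 21.1 and 17.7 CPM. Here the groups overlapped, since M337V 7 was above NTg 5. Lcn2, which binds the iron carriers of bacteria, had NTg levels of 26.7, 8.82 and 13.5 CPM, WT levels of 1.57 and 6.67 CPM and M337V levels of 3.43, 4.35, 3.29, 9.46 and 7.17 CPM, with the same overlap.

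Of the azurophil genes, Mpo had NTg levels of 15.1, 3.99 and 7.82 CPM, WT levels of 0.942 and 2.34 CPM and M337V levels of 1.48, 2.58, 1.57, 2.07 and 2.24 CPM, in the same animal order. Its M337V values were the most even of the 9 genes and all lay below NTg 5. Elane, a serine protease, had NTg levels of 5.19, 1.58 and 2.84 CPM, WT levels of 0.262 and 1.12 CPM and M337V levels of 0.307, 1.45, 0.627, 0.827 and 0.416 CPM. It was the most scattered within M337V, and M337V 2 came close to NTg 5. These 5 M337V values rest on 6, 27, 12, 16 and 8 counts, so each is imprecise.

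Calprotectin's genes had the same profile. S100a8 had NTg levels of 123, 37.2 and 52.7 CPM, WT levels of 6.59 and 22.4 CPM and M337V levels of 16.5, 23.3, 12.96, 15.8 and 32.5 CPM. S100a9 had NTg levels of 115, 31.97 and 52.7 CPM, WT levels of 6.07 and 22.1 CPM and M337V levels of 15.2, 21.4, 11.97, 16.7 and 30.4 CPM. The ratio of S100a8 to S100a9 counts stayed between 0.941 and 1.16 in the 10 libraries while each gene's level ranged over more than an order of magnitude. Retnlg had NTg levels of 18.02, 6.897 and 8.01 CPM, WT levels of 0.837 and 3.65 CPM and M337V levels of 1.89, 3.54, 1.99, 3.26 and 6.08 CPM, again with no overlap between NTg and the rest. In 7 of 9 genes, all but Ltf and Lcn2, every NTg library lay above each of the 7 others, as in 6.37% of all tested genes. NTg 4 is taken by its label here and in the like counts below, and the shares of all genes without it were not computed.

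Per kilobase of exon, which allows levels of different genes to be compared, S100a9 and S100a8 were highest, with medians over the 10 libraries of 41.6 CPM per kilobase (range 11.6 to 221) and 32.9 CPM per kilobase (9.50 to 177). Ngp followed at 15.1, then Camp at 7.30, Retnlg at 6.07, Ltf at 4.41 and Lcn2 at 2.64 CPM per kilobase. Elane, at 0.990, and Mpo, at 0.668 CPM per kilobase, were lowest. The ranges over libraries of neighbouring genes in this order overlapped widely, since each gene varied by 16.1-fold or more. The length joins the exons of all annotated transcripts and can exceed that of the message made. It was 2623 bases for Lcn2 and 758 bases for Camp. The order of the genes, and the place of Lcn2 in it, therefore depends on the length used.

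The first comparison asked how cord of mice with the mutant transgene differs from that of nontransgenic mice. All 9 genes had lower means in M337V than in NTg, by 2.95-fold (Lcn2) to 4.52-fold (Mpo), and 6 of 9 were called lower by edgeR's quasi-likelihood test with Benjamini-Hochberg adjustment over all tested genes at 0.05. In this comparison 1.61% of all tested genes were called lower and 4.29% in either direction. The median log2 difference of the 9 was -1.81, beside -0.01 over all tested genes, of which 90% lay between -0.51 and 0.31. For Mpo the NTg mean was 8.98 ± 5.66 CPM (SD, n = 3) and the M337V mean 1.99 ± 0.459 CPM (n = 5), with a log2 difference of -2.17 ± 0.38 (SE) and adjusted p = 0.0199 by edgeR. Ngp fell from 67.8 ± 40.4 to 17.2 ± 7.46 CPM, a log2 difference of -1.98 ± 0.40 (edgeR adjusted p = 0.0285), and Camp from 18.5 ± 11.3 to 4.59 ± 1.96 CPM, a log2 difference of -2.01 ± 0.43 (edgeR adjusted p = 0.0328). S100a8 (log2 difference -1.81 ± 0.42), S100a9 (-1.80 ± 0.43) and Elane (-2.14 ± 0.50) were also called by edgeR, at adjusted p = 0.0384, 0.0408 and 0.0408. The 3 genes not called were Retnlg (-1.71 ± 0.45, edgeR adjusted p = 0.0520), Ltf (-1.73 ± 0.50, 0.0656) and Lcn2 (-1.56 ± 0.45, 0.0674). For 7 of 9 genes every NTg library lay above every M337V library, as it did for 8.61% of all tested genes.

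These calls depended on single libraries. Without NTg 4, the library with human TARDBP counts, all 9 differences kept their sign at log2 -1.001 (Lcn2) to -1.60 (Elane), and 1 of 9 was called by edgeR, Mpo at log2 -1.57 ± 0.33 with adjusted p = 0.0492, beside 0.363% of all genes called lower. The 2 remaining NTg libraries then had a mean of 45.4 ± 15.5 CPM of Ngp and 5.91 ± 2.71 CPM of Mpo (SD, n = 2). The adjusted p of the other 8 genes ran from 0.0873 (Ngp) to 0.261 (Lcn2). Leaving out NTg 6 or M337V 2 left 0 of 9 called, leaving out M337V 3 left 1 and leaving out M337V 1 left 2. Calls over all tested genes fell as well. Those called lower were 1 without NTg 6, 8 without M337V 2, 28 without M337V 3 and 101 without M337V 1. By contrast, 9 of 9 were called without WT 8, without WT 10 and in a fit of M337V and NTg alone. Of all tested genes, 434, 439 and 398 were called lower in these 3 settings. The WT libraries are not among those compared here but enter the shared fit. Without both NTg 4 and WT 8, 3 of 9 were called (Ngp, Camp and Mpo), beside 1.09% of all genes called lower. With M337V 1, 2 and 3 left out, so that only M337V 7 and 9 stood for the genotype, 0 of 9 were called, beside 0.0132% of all genes called lower, and the differences ran from -0.96 to -2.34.

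The second comparison set mice with the human transgene without the mutation against nontransgenic mice. All 9 genes had lower means in WT, with a median log2 difference of -2.28 (range -2.50 to -1.97), beside -0.02 over all tested genes. By edgeR, 5 of 9 were called lower, while 2.05% of all tested genes were called lower and 5.64% in either direction. For Mpo the WT mean was 1.64 ± 0.987 CPM (SD, n = 2), with a log2 difference of -2.44 ± 0.53 and edgeR adjusted p = 0.0265. Ngp fell to 13.5 ± 9.17 CPM, a log2 difference of -2.32 ± 0.56 (edgeR adjusted p = 0.0373), and Camp to 3.24 ± 2.73 CPM, a log2 difference of -2.50 ± 0.61 (edgeR adjusted p = 0.0385). S100a8 (-2.28 ± 0.58, edgeR adjusted p = 0.0439) and S100a9 (-2.23 ± 0.59, 0.0498) were the other 2 called. Retnlg at -2.27, Ltf at -2.29, Elane at -2.19 and Lcn2 at -1.97 had edgeR adjusted p of 0.0550 to 0.0785. Every NTg library was above both WT libraries for 9 of 9 genes, and for 22.1% of all tested genes. Leaving out NTg 4, NTg 6 or WT 8 left 0 of 9 called, leaving out WT 10 or M337V 2 left 1, and leaving out M337V 1 or M337V 7 left 3. Of all tested genes, 46, 15 and 90 were called lower without NTg 4, NTg 6 and WT 8. Those called lower were 41 without WT 10, 221 without M337V 2, 240 without M337V 1 and 239 without M337V 7. Without NTg 4 the differences ran from -1.42 (Lcn2) to -1.88 (Camp), with edgeR adjusted p from 0.0554 (Mpo) to 0.210 (Lcn2), and 0.304% of all genes were called lower. Without both NTg 4 and WT 8, 0 of 9 were called, beside 0.487% of all genes. Without M337V 1, 2 and 3, 1 of 9 was called (Mpo), beside 2.1% of all genes. Both transgenic groups were set against the same 3 NTg libraries, so the 2 comparisons are not independent of each other.

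The third comparison, between the mutant and the normal transgene, called 0 of 9 genes, and 0% of all 15191 tested genes by edgeR. At an unadjusted edgeR p under 0.05 there were 0 of the 9 and 1012 of all tested genes, and DESeq2 called 29 genes and limma-voom 0, none of them among the 9. The M337V means were above the WT means for all 9, with a median log2 difference of 0.44 beside 0.00 over all genes, and from 0.05 (Elane) to 0.56 (Retnlg). The intervals were wide: for Ngp the 95% interval ran from -0.78 to 1.47, for Mpo from -0.83 to 1.36, for Retnlg from -0.73 to 1.86 and for Ltf from -0.85 to 1.97. A difference of 0.584-fold to 2.77-fold in Ngp therefore lay within the interval, and the result does not show that the genotypes had like levels. Without WT 8 the sign turned for all 9 genes, to log2 -0.10 (Ltf) to -0.63 (Elane).

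**Figure D2:**
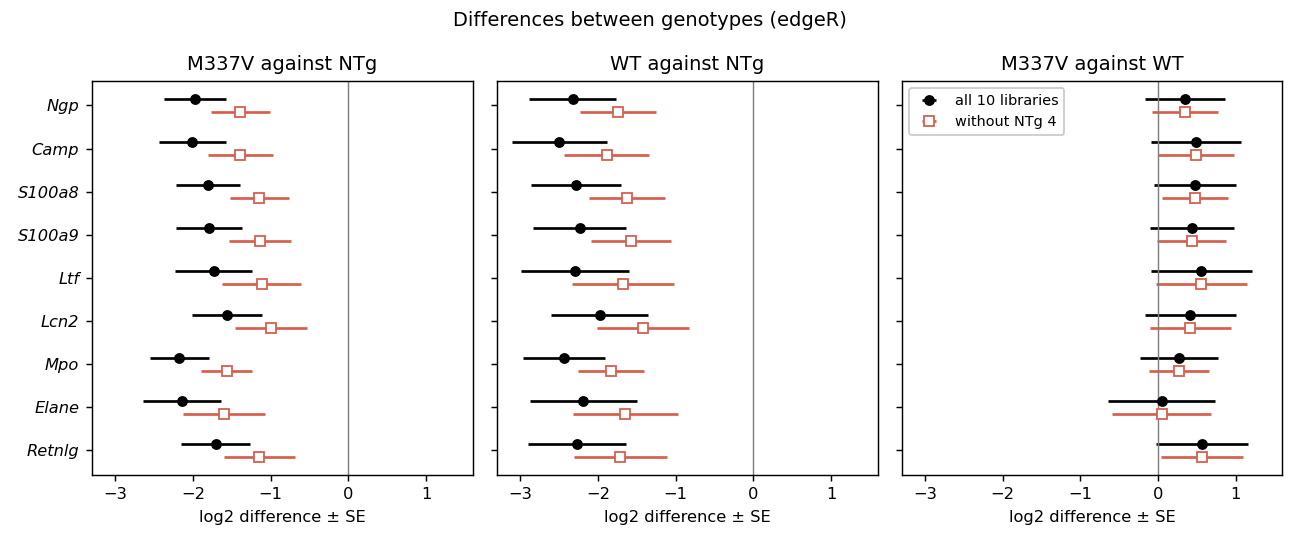
Log2 difference ± SE of each gene by edgeR (horizontal axis) in the 3 comparisons (panels), with all 10 libraries (filled circles) and without NTg 4 (open squares). Both comparisons with NTg lie to the left of 0 for all 9 genes and move toward 0 without NTg 4, and in the comparison of M337V with WT the points lie at 0.05 to 0.56.

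The make-up of the counts varied between animals, and for Ltf and Lcn2 it departed most in M337V 7. In 9 of 10 libraries Ltf gave 8.41% to 13.8% of the counts of the 9 genes, and in M337V 7 it gave 23.8% (exact binomial 95% interval 21.8 to 25.8). Lcn2 gave 5.01% to 6.94% in those 9 and 10.6% in M337V 7 (interval 9.21 to 12.2). S100a8 gave 17.7% in M337V 7 (interval 15.9 to 19.6), the lowest of the 10 libraries, where the highest was 26.9%. Against Ngp, the Ltf counts of M337V 7 stood at a ratio of 1.31, and those of the other 9 libraries at 0.432 to 0.639. For Lcn2 the ratio was 0.585, against 0.224 to 0.334. Camp, a further specific granule gene, did not share this: it gave 4.01% in M337V 7, the lowest of the 10, and up to 6.80% elsewhere. These intervals cover counting error only. At the other end of the scale, M337V 9 had the lowest shares of Mpo (1.67%, interval 1.21 to 2.25) and Elane (0.311%, interval 0.134 to 0.612, from 8 counts). Both intervals overlap those of M337V 1, at 1.59 to 3.39 for Mpo and 0.180 to 1.07 for Elane. The Mpo to Ngp ratio of M337V 9 was 0.0752, where the highest ratio was 0.152. The levels of M337V 7 decide the overlap of Ltf and Lcn2 between M337V and NTg.

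**Figure D3:**
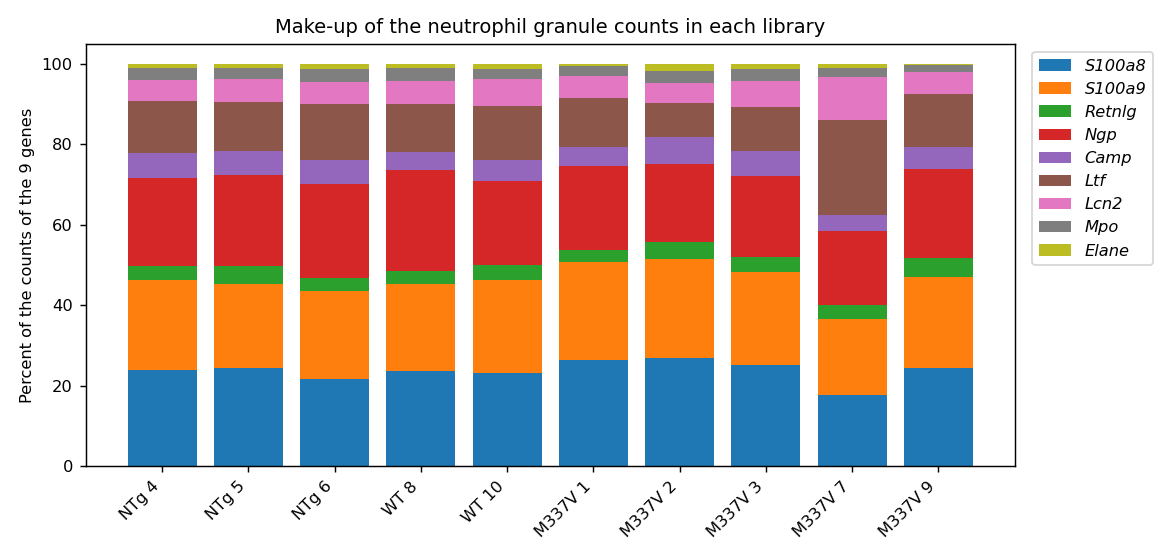
Percent of the 9 genes' summed counts that each gene gave (vertical axis) in each library (horizontal axis), as stacked bars. The bar of M337V 7 has the widest Ltf segment, 23.8%, and the widest Lcn2 segment, 10.6%.

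The genes lie on 6 chromosomes of GRCm38. Of these, 3 are on chromosome 9: Camp (109847379 to 109849617, minus strand, 4 exons), Ngp (110419747 to 110423012, plus strand, 4 exons) and Ltf (111019271 to 111042767, plus strand, 17 exons), with 570 kb between Camp and Ngp and 596 kb between Ngp and Ltf. S100a8 (90668978 to 90670035, plus strand) and S100a9 (90692632 to 90695721, minus strand) lie 22.6 kb apart on chromosome 3. Lcn2 is on chromosome 2 (32384633 to 32388252, minus strand), Mpo on chromosome 11 (87793581 to 87804413, plus strand), Elane on chromosome 10 (79886247 to 79888215, plus strand) and Retnlg on chromosome 16 (48872621 to 48874496, plus strand). Mpo overlaps the antisense gene Gm11505. The kit marked strand, and whether the counting used it is not given in the sources used here.

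The nearest tested genes mostly had smaller differences. In M337V against NTg, the neighbours of Ngp were Ptpn23 at log2 -0.30 and Klhl18 at -0.07, and those of Camp were Nme6 at -0.28 and Cdc25a at 0.00, with edgeR adjusted p of 0.0939 to 0.990. The neighbours of Ltf were Lrrc2 at -0.17 and Ccrl2 at 0.10, and those of Lcn2 were 1110008P14Rik at 0.11 and Ptges2 at -0.01, none of them called. On 1 side of the calprotectin pair S100a7a stood at 0.37 ± 0.50. On the other side the nearest tested gene, Lor at -0.03 ± 0.13, was 1385 kb away. Beside Retnlg, its relative Retnla stood at -0.14 ± 0.75 and Dzip3 at 0.19 ± 0.05, again none called. The SE of S100a7a and Retnla are wide, so their values say little. Beside Mpo, Tspoap1 was called at -0.29 ± 0.07 (edgeR adjusted p = 0.0486), a far smaller difference, and Lpo, a peroxidase relative, stood at -0.46 (0.0812). The neighbour of Elane 3.07 kb away is Prtn3, itself an azurophil protease gene, which was called at -1.22 ± 0.28 (edgeR adjusted p = 0.0397), while Cfd on its other side stood at -1.002 ± 0.86 (0.510).

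Most other neutrophil genes, listed apart from the 9, had lower means in M337V than in NTg as well. Of 3 other azurophil genes 2 were tested and both were called lower by edgeR: Prtn3, as above, and the protease gene Ctsg at log2 -1.61 ± 0.38 (adjusted p = 0.0416). Of 10 other specific and gelatinase granule genes, 10 had negative differences (median -1.58) and 5 were called lower. These were Cd177, a neutrophil surface antigen, at -2.06 ± 0.39 (edgeR adjusted p = 0.0237), the gelatinase gene Mmp9 at -0.88 ± 0.19 (0.0335), Wfdc21 at -1.83 ± 0.45 (0.0449), Chil3 at -1.79 ± 0.44 (0.0461; named after its values were seen) and Fcnb at -1.91 ± 0.48 (0.0461). Mmp9 had NTg levels of 35.4, 16.5 and 20.3 CPM, WT levels of 14.5 and 15.2 CPM and M337V levels of 12.1 to 14.6 CPM. It thus varied less between animals than the 9 genes did. Of 20 genes of maturing and circulating neutrophils 14 were tested and 11 had negative differences (median -1.36), and 2 were called lower: the chemokine receptor gene Cxcr2 at -2.11 ± 0.42 (edgeR adjusted p = 0.0275) and the surface marker Ly6g at -2.01 ± 0.43 (0.0319). Against NTg, the WT group had 1 called lower in each of these 3 lists: Ctsg at -2.55, Cd177 at -2.29 and Ly6g at -2.64 (edgeR adjusted p = 0.0291, 0.0352 and 0.0337). Without NTg 4, or without NTg 6, 0 genes of the 3 lists were called in either comparison, and without M337V 2 or M337V 3 0 were called in M337V against NTg. Of all tested genes, 46 and 15 were called lower in WT against NTg without NTg 4 and NTg 6. In M337V against NTg, 55, 1, 8 and 28 were called lower without NTg 4, NTg 6, M337V 2 and M337V 3. In that comparison the 3 lists had 0, 1 and 1 called without M337V 1, 0, 2 and 3 without M337V 7, and 0, 7 and 3 without M337V 9. Of all genes, 101, 277 and 186 were then called lower. In WT against NTg the 3 lists had 0 each without WT 8, 1, 1 and 0 without WT 10, and 2, 5 and 1 without NTg 5. Of all genes, 90, 41 and 241 were then called lower.

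Transcription factors that drive granulocyte formation showed smaller differences. Of 7 tested, all had negative differences in M337V against NTg (median -0.41) and 0 were called by edgeR, with 3 at an unadjusted p under 0.05. Cebpa stood at -0.15 and Cebpb at -0.41 (edgeR adjusted p = 0.431 and 0.199), and both are also made in other cells. Among 7 receptors of the granule proteins, 2 were called lower by edgeR in M337V: Cd36, a scavenger receptor also found on endothelium, at -1.33 ± 0.25 (adjusted p = 0.0232), and Slc22a17, the lipocalin-2 receptor gene, at -0.25 ± 0.06 (0.0427). Without NTg 6 or M337V 2 that count was 0, and without NTg 4, NTg 5 or M337V 1, 3 or 9 it was 1. Of all tested genes, 1 and 8 were called lower without NTg 6 and M337V 2, and 28 to 186 in the others of these settings. Of 4 tested protease inhibitors 0 were called, with Serpina3n at 1.26 ± 0.46 (edgeR adjusted p = 0.120) and Serpinb1a, which inhibits elastase, at 0.32 ± 0.09 (0.0704). Of 12 genes for neutrophil recruitment 4 were tested and 0 were called by edgeR, with the adhesion molecules Vcam1 at -0.08 and Icam1 at -0.30. Of 8 genes of reactive astrocytes, another source of Lcn2, 0 were called in M337V against NTg and 4 had negative differences (median 0.15). Their 2 genes of highest level were Gfap, the main astrocyte filament gene, at 0.54 ± 0.20 (edgeR adjusted p = 0.119), and Serpina3n, given above.

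Some genes of dividing cells, whatever their type, and of other blood and marrow cells were also called lower. Their part in the result was not tested. Mki67, a marker of dividing cells, had NTg levels of 29.6, 11.8 and 19.2 CPM, WT levels of 3.19 and 5.94 CPM and M337V levels of 4.71, 6.97, 3.76, 9.46 and 8.79 CPM. It was called lower in M337V at log2 -1.59 ± 0.32 and in WT at -2.14 ± 0.45 (edgeR adjusted p = 0.0285 and 0.0252), and 7 of 7 genes of its list had negative differences, 1 of them called. The summed level of that list was 25.8 to 56.3 CPM in NTg, 9.99 to 16.3 CPM in WT and 11 to 21.9 CPM in M337V. Slc4a1, the anion exchanger of red cells, had NTg levels of 51.6, 16.8 and 28.4 CPM, WT levels of 2.77 and 6.77 CPM and M337V levels of 7.93, 7.19, 3.97, 14.99 and 16.4 CPM. Of 14 erythroid genes 8 had negative differences in M337V and 2 were called lower (Car1 at -1.58 and Slc4a1 at -1.68, edgeR adjusted p = 0.0475 and 0.0495), and in WT 13 were negative and 4 called lower. The haemoglobin gene Hbb-bs, named after its values were seen, did not follow: it had NTg levels of 709, 399.5 and 439 CPM, WT levels of 659 and 227 CPM and M337V levels of 341 to 2176 CPM, the highest in M337V 9. The erythroid sum was 783 to 1387 CPM in NTg, 468 to 1049 CPM in WT and 670 to 3633 CPM in M337V. Without NTg 4 or NTg 6, 0 erythroid and 0 cycling genes were called in either comparison. The same held for M337V without M337V 2 or 3 and for WT without WT 8 or 10. Of all tested genes, 1 to 55 were called lower in M337V against NTg in these settings, and 15 to 90 in WT against NTg.

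Further blood lists had 0 to 2 genes called in each comparison with NTg, out of few tested. Of 6 tested platelet and megakaryocyte genes 6 had negative differences in M337V and 1 was called, Itga2b at -0.92 ± 0.20 (edgeR adjusted p = 0.0339), with sums of 13.2 to 27.2 CPM in NTg, 6.59 to 8.67 CPM in WT and 7.89 to 14.2 CPM in M337V. Of 2 tested mast cell and eosinophil genes, 0 were called in M337V and Prg2, a granule protein of eosinophils, was called in WT at -2.18 ± 0.56 (edgeR adjusted p = 0.0441). Prg2 had NTg levels of 18.7, 8.23 and 9.55 CPM, WT levels of 1.36 and 3.95 CPM and M337V levels of 2.46 to 7.94 CPM. Of 7 tested monocyte genes 0 were called in M337V and 2 in WT, Ly6c2 at -1.93 and F13a1 at -1.21 (edgeR adjusted p = 0.0397 and 0.0472). Of 7 tested B cell genes 6 had negative differences in M337V and 0 were called, and their summed level was highest in M337V 7, at 105 CPM. No T or NK cell gene passed the filter, and the 6 in the table summed to 0.605 to 2.29 CPM. No gene of these lists was at 0 counts in all libraries. Without NTg 4 or NTg 6, 0 platelet, mast cell, eosinophil or monocyte genes were called in either comparison. Of all tested genes, 55 and 1 were then called lower in M337V against NTg, and 46 and 15 in WT against NTg.

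Genes of neighbouring tissues varied between libraries too. Col1a2, a collagen gene of the meninges, was highest in NTg 4, at 214 CPM, and next in M337V 7, at 92.9 CPM, and it was lowest in WT 8, at 34.1 CPM. The 8 meningeal genes had 0 called in M337V or WT against NTg, with sums of 226 to 809 CPM in NTg, 106 to 197 CPM in WT and 134 to 485 CPM in M337V. Unlike Col1a2, their sum was second highest in M337V 3, at 485 CPM, with M337V 7 at 420 CPM. Of 10 muscle genes 2 were called lower in M337V, Myh2 at -3.05 ± 0.76 and Mb at -2.67 ± 0.67 (edgeR adjusted p = 0.0464 and 0.0468). Myh2, a skeletal muscle myosin, had NTg levels of 9.94, 30.1 and 49.4 CPM, WT levels of 26.2 and 1.22 CPM and M337V levels of 2.92, 2.79, 3.81, 7.91 and 0.572 CPM. NTg 4, where the 9 genes were highest, was thus the lowest of the NTg libraries for Myh2, and WT 8, where they were lowest, was above it and above WT 10 and all M337V libraries. Muscle sums were 218 to 1159 CPM in NTg, 130 to 685 CPM in WT and 107 to 274 CPM in M337V. Of 12 bone and cartilage, 3 fat, 7 endothelial and 4 border macrophage genes tested, 0 were called. Microglial genes went the other way: 8 of 8 were higher in mean in M337V and 2 were called by edgeR, P2ry12 at 0.52 ± 0.09 and Gpr34 at 0.60 ± 0.14 (adjusted p = 0.0223 and 0.0410). Of 12 cord genes 4 had negative differences in M337V against NTg (median 0.19) and 2 were called higher, among them Mbp at 0.45 ± 0.08 (edgeR adjusted p = 0.0225). Without NTg 6, 0 genes of the muscle and microglial lists, and not Mbp, were called in M337V against NTg. The muscle count was 0 without NTg 5 or M337V 1, 2, 3 or 9 as well, and 9 without WT 8 or WT 10. Over all tested genes, 2 were called in either direction without NTg 6 and 53 to 576 in the further settings with 0. Without WT 8 and WT 10 they were 1009 and 1016.

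**Figure D4:**
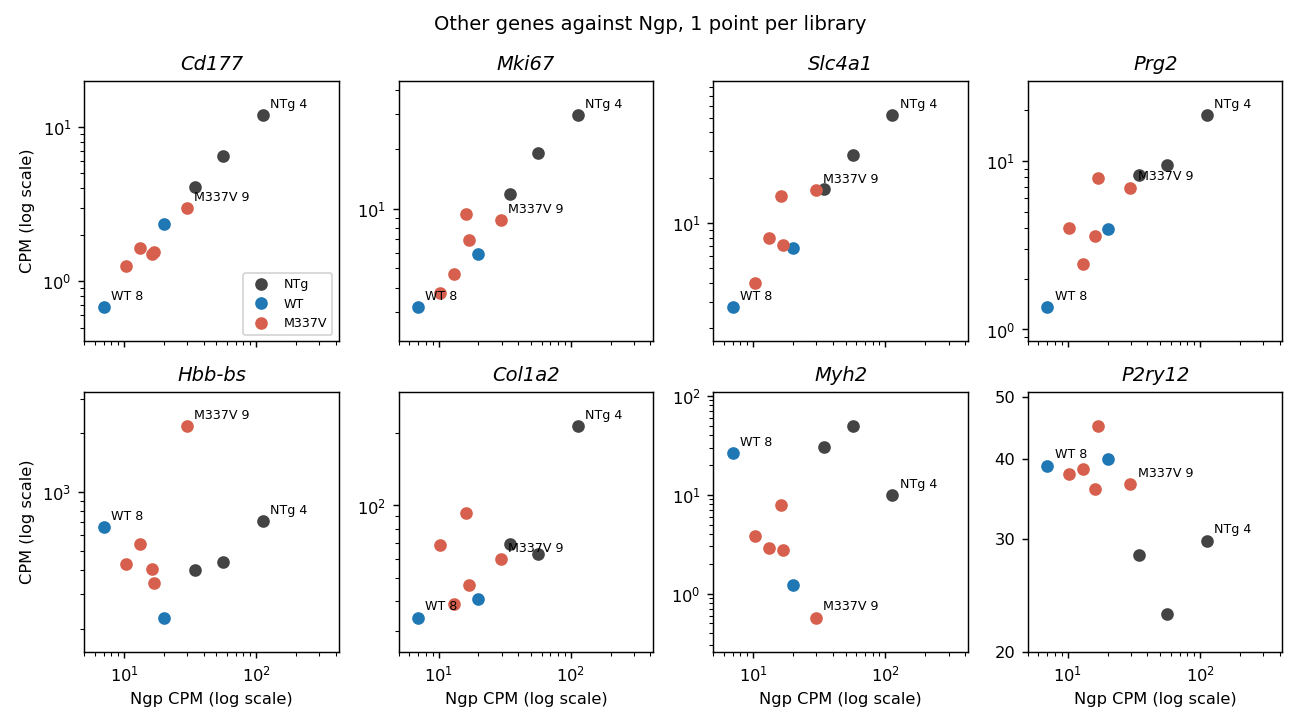
CPM of 8 other genes (vertical axes) against CPM of Ngp (horizontal axes), both on log scales, with 1 point per library coloured by genotype. Cd177, Mki67, Slc4a1, Prg2 and Col1a2 are highest in NTg 4 and lowest in WT 8 as Ngp is, with Col1a2 second highest in M337V 7, whereas Hbb-bs is highest in M337V 9, Myh2 in NTg 6 and P2ry12 in M337V 2.

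The 5 tested genes outside the list with the profile most like the mean log2 level of the 9 over the 10 libraries were Plaur (Pearson r = 0.984, Spearman rho = 0.988), Atp8b4 (0.983 and 0.964), Fcnb (0.983 and 0.952), Cd177 (0.977 and 0.964) and Ly6c2 (0.975 and 0.903). The libraries share the difference between genotypes, so these values describe likeness of profile and carry no test. Without NTg 4 the Pearson r of these 5 was 0.955 to 0.976. Plaur, which encodes the urokinase receptor, stood at 2.45 CPM in NTg 4 and 0.209 CPM in WT 8. By edgeR, Plaur at log2 -1.59 (adjusted p = 0.0443) and Atp8b4 at -1.77 (0.0349) were called lower in M337V than in NTg, and Ly6c2 at -1.25 (0.0585) was not. Among all 15191 tested genes ranked by this likeness, S100a9, Ngp, Camp and S100a8 took the first 4 places, Retnlg place 6, Mpo place 9, Lcn2 place 19, Ltf place 30 and Elane place 84. The 9 genes form the profile themselves, so their ranks show only which of them departed from the rest, Elane and Ltf most.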

How the data were processed

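RNA was extracted from frozen lumbar cord with Trizol and miRNeasy columns, had integrity numbers above 8 and was made into stranded TruSeq libraries sequenced in pairs, per the labels' protocols. The authors deposited whole, unnormalised counts of reads for each gene. STAR 2.4.2a, Salmon 0.8.2, Subread 1.4.6 with featureCounts, and DESeq2 1.14.1 are among the tools named by the submitters' processing notes, which give them no roles. The genome build behind the counts is not given in the sources used here.

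Gene names and coordinates came from GENCODE (GRCm38), which named 21774 of 22024 identifiers and left 250 without a name. Groups came from the sample titles. All 10 libraries entered 1 edgeR 4.0.16 quasi-likelihood fit in R 4.3.3, with 1 mean per group, TMM scaling and filterByExpr (minimum count 10, minimum total 15). It left 15191 genes holding 99.971% of all counts. P-values were adjusted by Benjamini-Hochberg over all tested genes with a threshold of 0.05. CPM are counts per 1000000 of the TMM-scaled library, SE come from the test statistic, and 95% intervals use the fit's degrees of freedom. The script was tested on simulated data. DESeq2 1.42.0, limma 3.58.1 voom with quality weights, RLE scaling, other filters, robust dispersions, a fit of the compared groups alone and omitted libraries were tried as alternatives.

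The 9 genes, the 25 lists (the 9 among them) and the rule for naming genes were chosen with earlier results of these data known. Named were the 9, Mmp9, up to 3 called genes per list, direction and comparison (the 2 highest in level where a list had none), the 5 genes of most alike profile and the nearest tested genes. Of the listed genes 6 were not found in the table (Cebpd, Ahsp, Ighm, Igkc, Trac and Trbc2). Each library is from a separate mouse, per the series' design text. Results of 2 genes and of a list that rests on them are not reported here.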

Additional observations from a re-analysis of the deposited data

Results flagged for a closer look

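Within the M337V group, the levels and the shares of the 9 genes were checked for a library far from the others, 18 checks in all, of which chance flags about 1 in 20. M337V 7 stood apart in the make-up of its counts. S100a8 gave 17.7% of the 9 genes' counts in M337V 7, and the next lowest of the group gave 24.3%, a gap of 0.722 of the group's range. Lcn2 gave 10.6% in M337V 7, and the next highest gave 6.38%, a gap of 0.757 of the range. Shares of 1 library sum to a whole, so these are not independent of each other. The gap needed for 5 libraries was 0.71. What sets M337V 7 apart was not tested.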

How the results depend on the processing

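All 171 alternative values of the 9 genes' log2 differences in M337V against NTg, and all 171 in WT against NTg, kept their sign. Of these, 42 and 51 were lost calls and 15 and 3 were gained calls. The number of the 9 genes called in M337V against NTg (6) was 2 with robust dispersions, 3 without both NTg 4 and WT 8, 0 without M337V 1, 2 and 3, and 0 to 9 with 1 library left out. In WT against NTg (5) it was 0 in a fit of those groups alone, 0 by limma-voom, 1 with robust dispersions, 0 without both NTg 4 and WT 8, 1 without M337V 1, 2 and 3, and 0 to 5 with 1 library left out. In M337V against WT it was 0 in each setting. Of all genes, those called in M337V against NTg (651) were 1057 in a fit of those groups alone, 1498 by DESeq2, 1315 by limma-voom, 3 without M337V 1, 2 and 3, and 2 to 1016 with 1 library left out. In WT against NTg (857) they were 258, 1725 and 215 by the same first 3 settings, 142 without both NTg 4 and WT 8, and 44 to 1086 with 1 library left out. With robust dispersions 759 genes were called in M337V against NTg (285 lower) and 962 in WT against NTg (360 lower). In that setting calls over all genes thus rose while those among the 9 fell. In M337V against WT (0) they were 29 by DESeq2, 1 with no filter, 1 with robust dispersions, 4 without both libraries, and 0 to 6 with 1 library left out.

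In M337V against WT, 21 values turned sign. Without both NTg 4 and WT 8 the log2 differences were -0.17 for Camp, -0.63 for Elane, -0.27 for Lcn2, -0.10 for Ltf, -0.24 for Mpo, -0.21 for Ngp, -0.12 for Retnlg, -0.15 for S100a8 and -0.21 for S100a9. With 1 library left out they ran from -0.17 to 1.80 for Camp, -0.63 to 1.44 for Elane, -0.27 to 1.82 for Lcn2, -0.10 to 1.85 for Ltf, -0.24 to 1.07 for Mpo, -0.21 to 1.30 for Ngp, -0.12 to 1.99 for Retnlg, -0.15 to 1.62 for S100a8 and -0.21 to 1.66 for S100a9, the lowest without WT 8 and the highest without WT 10. Elane also turned without M337V 2 (-0.36), without M337V 7 (-0.01) and without M337V 1, 2 and 3 (-0.17). Beyond the libraries left out, the cause was not tested. No paired analysis was possible because the groups share no replicate number. With 2 WT libraries, of which WT 8 stands apart, and 3 NTg libraries, of which NTg 4 holds human TARDBP counts, few animals stand behind each mean. Counts were also low for some genes, with 5 of Elane, 16 of Retnlg, 18 of Mpo and 25 of Camp in WT 8. Elane had 6 to 27 counts in the M337V libraries.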

Other observations

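Some further genes were high in M337V 7, all named after their values were seen. BC100530, a stefin gene of mature neutrophils, reached 23 counts in M337V 7 against 0 to 2 in all others, and Asprv1, a protease gene of skin and of mature neutrophils, stood at 4.19 CPM in M337V 7 and at 0.208 to 1.90 CPM elsewhere. The osteoclast phosphatase gene Acp5 was highest in NTg 4 (13.5 CPM) and M337V 7 (5.69 CPM) and stood at 0.676 to 3.17 CPM in the others. The bone matrix gene Ibsp had the same 2 highest libraries, at 10.1 and 2.89 CPM, with 0.157 to 1.07 CPM in the others. Their list of 13 bone and cartilage genes showed this less. Its sum was 107 CPM in NTg 4, 82.6 CPM in M337V 7 and 78.4 CPM in WT 8. Of the 12 tested, 8 had negative differences in M337V against NTg, and Dmp1, one of the highest in level, stood at 0.47. Stefin genes are near-identical copies, so the BC100530 counts are uncertain.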
